A study of Lotus japonicus with 12 samples.

Results

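In root nodules of the legume Lotus japonicus, 45 annotated genes had a transcript level at least 2-fold lower, on the log2(FPKM + 1) scale, in every cpop1 library than in any wild-type (WT) library. They are 45 of 29531 features in the table, and 45 of the 16701 that met the conditions on identifier, minimum level and maximum mean. The 12 RNA sequencing libraries are 3 each from root nodules of WT plants at 10 and 21 days post inoculation (dpi) and of cpop1 plants, labelled cpop1/hemf2, at the same ages. All seedlings, of both genotypes, were inoculated with the rhizobium M. loti MAFF 303099, 3 days after they were moved to vermiculite. The sources used here give neither the allele nor the number of plants or nodules behind a library, so the spread between libraries of a group may be technical.

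In root nodules, rhizobia living inside legume cells turn atmospheric nitrogen into ammonium. Heme is the cofactor of leghemoglobin, the plant protein that binds oxygen in infected nodule cells and keeps free oxygen low while supplying respiration, and oxygen inactivates nitrogenase, the bacterial enzyme that fixes nitrogen. The series title names CPOP1 as an enzyme of heme synthesis, and the design text calls nodules of 10 dpi young and those of 21 dpi mature. HEMF is a name used for coproporphyrinogen III oxidase, which turns coproporphyrinogen III into protoporphyrinogen IX on the way to heme.

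Levels are in FPKM as deposited, that is, fragments scaled by transcript length and by the size of the library, and the read depth is unknown. The table gives identifiers without gene names, and 0 of the 45 matched the 40429 rows of the RefSeq table of assembly LjGifu_v1.2, so the genes are given by identifier and no function is assigned. The level of the mutated gene and of nodule marker genes was not analysed here for the same reason. Between 18486 and 20623 features per library reached 1 FPKM. WT 10 dpi replicate 3 stood apart: across features, its log2(FPKM + 1) values had a mean correlation of 0.843 with the other WT 10 dpi libraries and of 0.935 with the cpop1 10 dpi libraries. In nodule RNA, fewer cells of a type and less RNA per cell cannot be told apart.

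The genes were chosen on the measured values themselves. On the log2(FPKM + 1) scale, the lowest of the 6 WT libraries had to exceed the highest of the 6 cpop1 libraries by at least 1, which is 2-fold. Each gene also had to reach 1 FPKM in at least 3 libraries, a condition that the WT libraries alone can meet, and to average under 1000 FPKM. The difference between the genotypes is therefore a property of the choice, and it is described here with no test. The gap ranged from 1.0 to 3.18 with a median of 1.64, and 8 genes had a gap of 2 or more. The same gap in the opposite direction, higher in every cpop1 library, was found for 37 genes.

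Around the threshold the gap changed gradually. Just inside, LotjaGi1g1v0004000 had a gap of 1.0, between 16.3 FPKM in its lowest WT library and 7.63 FPKM in its highest cpop1 library. LotjaGi1g1v0570600 had a gap of 1.03, between 1.31 and 0.13 FPKM. Just outside, LotjaGi4g1v0161400 had a gap of 0.99, between 1.8 and 0.41 FPKM, and LotjaGi4g1v0249900 a gap of 0.98, between 15.2 and 7.21 FPKM. The lowest WT library of LotjaGi4g1v0249900 was WT 10 dpi replicate 3, which read 15.2 FPKM against 95.4 and 78.3 FPKM in the other libraries of its group.

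That library set the size of the group of genes. With it left out, 241 genes met the rule, against 45 with all 12 libraries, while leaving out any other single library gave 45 to 56 genes. It was the lowest WT library for 15 of the 45 genes, but WT 21 dpi replicate 3 was so for 15 as well and WT 21 dpi replicate 1 for 10. WT 10 dpi replicate 3 read lower than both other WT 10 dpi libraries for 26 genes, higher than both for 14 and between them for 5. These counts were not made over all features and are not read as particular to these genes. The ratio of this library to the mean of replicates 1 and 2 ran from 0.154 to 2.51 with a median of 0.808. On the log2(FPKM + 1) scale, its median absolute difference from their mean was 0.55 for the 45 genes, against 0.63 over the 16701 features. The rule itself places this library on the WT side for all 45, so its place there says nothing of its label.

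**Figure D1:**
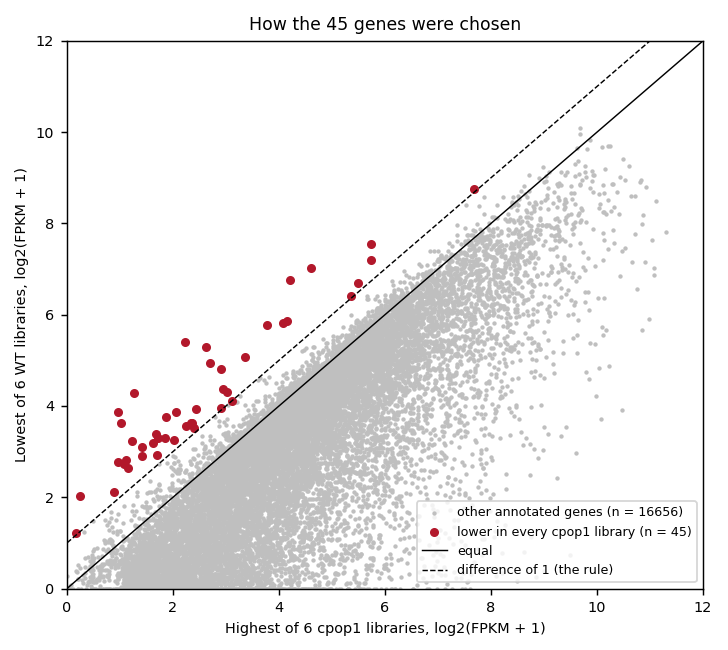
Lowest of the 6 WT libraries (vertical) against the highest of the 6 cpop1 libraries (horizontal), both as log2(FPKM + 1), for the 16701 features that met the other conditions. The 45 red points lie on or above the dashed line, which marks a difference of 1, and reach a gap of 3.18.

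The mean level of these genes over the WT libraries ran from 2.28 to 836 FPKM with a median of 43.9 FPKM, against a median of 12.7 FPKM over the 16701 features. In cpop1 nodules their mean level was 28.6% or less of the WT mean at 10 dpi, with a median of 7.12% and a lowest value of 0.186%. At 21 dpi it was 36.1% or less, with a median of 2.77%. The cpop1 level was under 10% of WT for 29 genes at 10 dpi and for 29 genes at 21 dpi, and under 1% for 4 and 16 genes. All 3 cpop1 libraries were under 1 FPKM for 5 genes at 10 dpi and for 23 genes at 21 dpi. No gene was listed at 0 in all 3 cpop1 libraries of 10 dpi (0 of 45), and 3 were at 21 dpi: LotjaGi4g1v0245800, LotjaGi2g1v0103000 and LotjaGi5g1v0152700, named after their values were seen because they are so few. A listed 0 is not proof of absence, since the depth is unknown. The highest cpop1 library was one of 10 dpi for 41 of the 45 genes. Over all features, too, more fell with age in cpop1 (21.5%) than rose (8.03%), by the limma test described below. That is another measure, and the share of all features with their highest cpop1 library at 10 dpi was not computed. The count of 41 is therefore not read as particular to these genes.

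The widest gap belonged to LotjaGi2g1v0177300. In WT it stood at 100.2, 74.8 and 41.0 FPKM at 10 dpi and at 944, 1256 and 803 FPKM at 21 dpi. In cpop1 it stood at 2.72, 3.65 and 1.52 FPKM at 10 dpi and at 0.14, 0 and 0 FPKM at 21 dpi. The WT libraries of the 2 ages were far apart, and the cpop1 libraries went the other way.

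LotjaGi2g1v0177200, which carries the next lower number in the table, had the next widest gap. Its WT libraries were at 49.5, 25.1 and 18.4 FPKM at 10 dpi and at 412, 594 and 369 FPKM at 21 dpi, and its cpop1 libraries at 0.71, 1.4 and 0.28 FPKM and then at 0, 0 and 0.14 FPKM. These 2 were the only genes of the 45 with directly neighbouring identifiers.

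LotjaGi3g1v0078750 had the opposite course in WT. It was at 302, 340 and 377 FPKM in young WT nodules and at 14.2, 19.2 and 13.7 FPKM in mature ones, while no cpop1 library exceeded 0.94 FPKM. Its young cpop1 nodules read 0.32, 0.64 and 0.94 FPKM and its mature ones 0, 0.11 and 0.11 FPKM.

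LotjaGi6g1v0211700 had overlapping WT libraries, at 42.6, 46.0 and 38.6 FPKM at 10 dpi and 38.2, 44.4 and 44.9 FPKM at 21 dpi. In cpop1 it was at 4.52, 5.18 and 4.8 FPKM and then at 1.84, 2.54 and 2.13 FPKM, with no overlap between the ages.

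**Figure D2:**
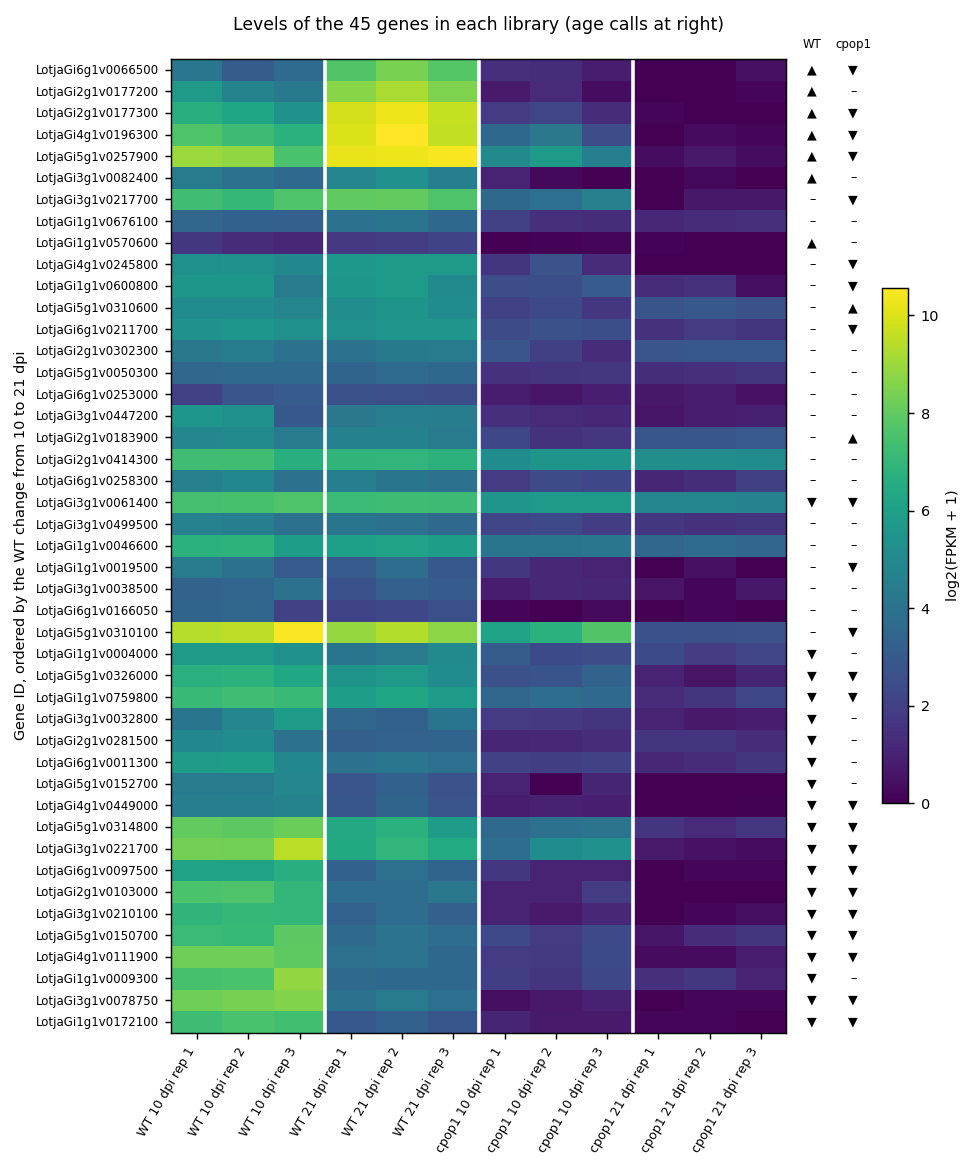
Level of each of the 45 genes (rows) in each of the 12 libraries (columns) as log2(FPKM + 1), ordered by the WT change from 10 to 21 dpi. Symbols at the right give the limma call of that change in WT and in cpop1: up for higher, down for lower and a dash for not passed; 7 genes rose and 19 fell in WT, and 2 rose and 23 fell in cpop1.

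The rule compares the genotypes and not the ages, so the change with age within a genotype was tested. It still limits that change, since a gene that fell too far in WT or rose too far in cpop1 was left out. The linear model was fitted with limma to log2(FPKM + 1) of all 22249 features with at least 1 FPKM in at least 3 libraries, with p-values adjusted over all of them by Benjamini-Hochberg and a threshold of 0.05. Between 10 and 21 dpi, 26 of the 45 genes (57.8%) changed in WT nodules, against 35.8% of all features. Of these 19 (42.2%) fell, against 24.4% of all features, and 7 (15.6%) rose, against 11.3%. The median change was -0.52 over the 45 genes and -0.23 over all features. The rule asks that every library of the genotypes be parted, and so also selects on the spread between libraries that enters this test. The shares are therefore not read as particular to these genes.

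The 7 genes with a passing rise in WT included the most abundant of the 45 in mature nodules. Their WT group means ran from 1.72 to 383 FPKM at 10 dpi and from 2.83 to 1289 FPKM at 21 dpi. In cpop1 the same genes had means of 0.07 to 35.3 FPKM at 10 dpi and of at most 0.39 FPKM at 21 dpi, so that the median cpop1 level was 4.06% of WT at 10 dpi and 0.0303% at 21 dpi. The rise passed the threshold in every alternative setting for 5 genes. It was lost for LotjaGi3g1v0082400 without any one of 8 libraries, WT 10 dpi replicate 3 among them (limma adjusted p = 0.0748), and for LotjaGi1g1v0570600 without any one of 10 libraries (limma adjusted p = 0.0824 without WT 10 dpi replicate 3). The changes without WT 10 dpi replicate 3 were 0.73 and 0.39. These 2 genes rose least, by 0.90 and 0.50 on the log2 scale. For the 7, the median ratio of WT 10 dpi replicate 3 to the mean of the other WT 10 dpi libraries was 0.611.

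The largest rise was that of LotjaGi6g1v0066500. Its WT libraries were at 16.7, 7.58 and 12.1 FPKM at 10 dpi and at 204, 344 and 217 FPKM at 21 dpi, which the model put at 4.31 ± 0.30 on the log2 scale (SE; limma adjusted p = 8.82e-06). Its cpop1 libraries went from 1.67, 1.63 and 0.78 FPKM to 0, 0 and 0.4 FPKM. LotjaGi2g1v0177200 rose in WT by 3.93 ± 0.34 (limma adjusted p = 3.57e-05). Its neighbour LotjaGi2g1v0177300 rose by 3.84 ± 0.32 (limma adjusted p = 2.55e-05). For both of these neighbours the lowest mature WT library was several times the highest young one.

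Among the 7 were also 3 of the 4 genes with the highest WT mean. LotjaGi5g1v0257900 was at 508, 454 and 187 FPKM in young WT nodules and at 1184, 1255 and 1428 FPKM in mature ones. In cpop1 it was at 30.6, 52.4 and 22.9 FPKM and then at 0.26, 0.65 and 0.26 FPKM. LotjaGi4g1v0196300 was at 200.5, 151 and 108 FPKM in young WT nodules and at 1033, 1515 and 766 FPKM in mature ones. Its cpop1 libraries were at 10.48, 17.4 and 4.72 FPKM at 10 dpi and at 0, 0.24 and 0.12 FPKM at 21 dpi. In both genes the mature WT libraries were the highest of all 12 and the mature cpop1 libraries the lowest. The remaining 1 of the 4, LotjaGi5g1v0310100, did not pass the test in WT. It read 662, 736 and 1447 FPKM in young and 478, 647 and 429 FPKM in mature WT nodules, with WT 10 dpi replicate 3 the highest.

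The 19 genes with a passing fall in WT had WT means of 22.4 to 455 FPKM at 10 dpi and 6.77 to 149 FPKM at 21 dpi. Their cpop1 means were between 0.633 and 49.3 FPKM at 10 dpi and at most 26.7 FPKM at 21 dpi. Their median level in cpop1 was 3.71% of WT at 10 dpi and 2.33% at 21 dpi. The fall passed the threshold in every alternative setting for 15 of the 19. The change of LotjaGi3g1v0061400 turned from -0.31 to 0.05 when each library was shifted to a common median. After that shift 10 of the 45 genes rose and 17 fell in WT, while the median change over all features moved from -0.23 to 0.13.

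LotjaGi1g1v0172100 fell most in WT. Its libraries read 156, 182 and 164 FPKM at 10 dpi and 6.46, 8.76 and 6.04 FPKM at 21 dpi, or -4.39 ± 0.16 in log2 units (adjusted p = 4.35e-07 by limma). Its cpop1 libraries read 1.16, 0.72 and 0.72 FPKM and then 0.1, 0.1 and 0 FPKM, so that the young WT nodules were the only group with a high level. LotjaGi3g1v0078750 changed by -4.36 ± 0.18 (adjusted p = 4.75e-07 by limma). LotjaGi1g1v0009300 read 181, 183 and 457 FPKM in young and 11.6, 10.9 and 10.9 FPKM in mature WT nodules, with WT 10 dpi replicate 3 the highest. The model put the change at -4.36 ± 0.33 (adjusted p = 1.57e-05 by limma).

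The remaining 19 genes did not pass the test in WT, which does not show that their level stayed the same. Their WT means ran from 5.45 to 948 FPKM at 10 dpi and from 4.08 to 518 FPKM at 21 dpi. Their median change was -0.19. In cpop1 their median level was 13.3% of WT at 10 dpi and 10.8% at 21 dpi. The 3 classes differed in this share at 21 dpi, from a median of 0.0303% in the genes that rose in WT to 10.8% in those that did not pass. That comparison shares the WT libraries of 21 dpi with the class itself and is given with no test.

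In cpop1 nodules 25 of the 45 genes (55.6%) changed between 10 and 21 dpi, against 29.5% of all features. Of these 23 (51.1%) fell, against 21.5% of all features, and 2 (4.44%) rose, against 8.03%. The median change was -0.80 over the 45 genes and -0.20 over all features, and 41 of the 45 changes were negative. In 13 of the 45 genes fewer than 3 cpop1 libraries reached 1 FPKM, so that these genes entered the test through their WT levels, and 6 of the 23 falls are among them. In 5 of the 45, 2 of which count as falls, every cpop1 library was under 1 FPKM. The shares above are therefore not read as a result about these genes. The count that fell was 33 without WT 10 dpi replicate 3, which enters this comparison only through the estimate of the spread, and the share of all features called then rose as well, from 29.5% to 51.98%. Across the other alternatives the count ran from 17 after a shift to a common median to 30 with a pseudocount of 0.1 FPKM or with the cpop1 libraries fitted alone.

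The genes that fell in cpop1 had taken different courses in WT: 13 of the 23 (56.5%) fell there too, 4 (17.4%) rose and 6 (26.1%) did not pass. Of the 4787 features that fell in cpop1, 41.3% fell in WT, 6.23% rose and 52.5% did not pass, and the difference from these shares was not tested. The largest fall was that of LotjaGi5g1v0257900, with a change of -4.64 ± 0.37 (adjusted p = 2.16e-05 by limma). This gene rose in WT by 1.87 ± 0.37 (adjusted p = 0.00348 by limma). LotjaGi3g1v0221700 changed in cpop1 by -4.24 ± 0.41 (adjusted p = 6.24e-05 by limma), from 13.0, 34.5 and 39.9 FPKM to 0.69, 0.41 and 0.28 FPKM. In WT it fell from 330.5, 317 and 716 FPKM to 84.0, 122 and 88.2 FPKM, or -2.11 ± 0.41 in log2 units (adjusted p = 0.00302 by limma). LotjaGi5g1v0310100 read 67.7, 107 and 204 FPKM in young cpop1 nodules and 5.39, 5.2 and 5.55 FPKM in mature ones, or -4.17 ± 0.38 in log2 units (adjusted p = 4.77e-05 by limma). Its young cpop1 libraries were spread over a wide range and its mature ones were close together.

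For 2 of the named genes the fall in cpop1 was close to the threshold. LotjaGi3g1v0078750 changed by -0.59 ± 0.18 (limma adjusted p = 0.0312). Its adjusted p was above the threshold without cpop1 10 dpi replicate 2 (0.0839) or 3 (0.11), and without cpop1 21 dpi replicate 1 (0.0989), 2 (0.0672) or 3 (0.0695), all by limma, and after a shift to a common median (0.222) or quantile normalization (0.115). Without those single libraries the change was -0.46 to -0.61, about as large as with all of them. LotjaGi6g1v0066500 changed by -1.05 ± 0.30 (limma adjusted p = 0.0237). Its call was lost without cpop1 10 dpi replicate 1 (limma adjusted p = 0.0716) or 2 (0.0815) and without cpop1 21 dpi replicate 1 (0.0795) or 2 (0.0776), and under the same scalings (0.0956 and 0.076). The change without those single libraries was -0.95 to -0.97. Both genes were under 2 FPKM in every cpop1 library. In all, 17 of the 23 falls passed in every alternative setting, the smaller fall of LotjaGi6g1v0211700 (-0.88 ± 0.13, adjusted p = 0.000755 by limma) among them.

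Only LotjaGi2g1v0183900 and LotjaGi5g1v0310600 rose with age in cpop1. LotjaGi2g1v0183900 read 3.73, 1.94 and 2.17 FPKM in young and 6.18, 6.19 and 6.69 FPKM in mature cpop1 nodules, or 1.06 ± 0.22 in log2 units (adjusted p = 0.00468 by limma). Its WT libraries stood at 29.0, 32.5 and 19.7 FPKM and at 23.7, 24.0 and 19.9 FPKM, overlapping between the ages. LotjaGi5g1v0310600 read 3.28, 4.07 and 2.16 FPKM and then 5.63, 6.45 and 5.11 FPKM, or 0.71 ± 0.19 in log2 units (adjusted p = 0.0163 by limma). That call was lost without cpop1 10 dpi replicate 3 (limma adjusted p = 0.0549) or cpop1 21 dpi replicate 2 (0.0638), with changes of 0.53 and 0.64. Its WT libraries read 33.6, 33.2 and 27.0 FPKM at 10 dpi and 35.7, 43.3 and 33.5 FPKM at 21 dpi. Both genes remained below every WT library at 21 dpi, as the rule requires.

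**Figure D3:**
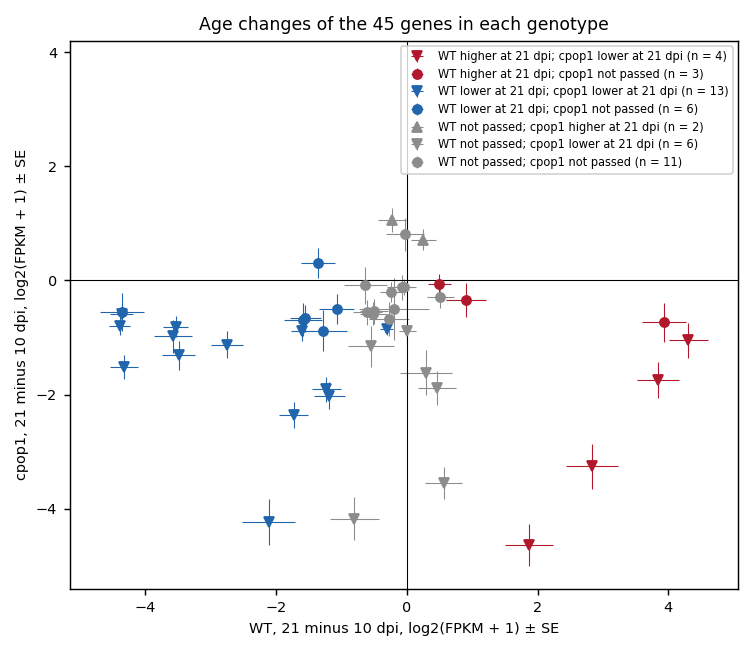
Change from 10 to 21 dpi in WT (horizontal) and in cpop1 (vertical) for the 45 genes, on the log2(FPKM + 1) scale with SE bars; colour gives the WT call and symbol the cpop1 call. The 13 genes that fell in both lie at the lower left and the 4 that rose in WT and fell in cpop1 at the lower right, and no gene rose in both.

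The WT and cpop1 age changes share no library. Across the 45 genes their Pearson correlation was -0.10, against 0.30 across all 22249 features. The genes are not independent replicates, and the values are given as a description only.

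The genotype effect, cpop1 minus WT on the log2(FPKM + 1) scale, was negative at both ages for all 45 genes by the choice of them. The rule does not fix at which age it was larger, although it leaves out any gene whose effect vanished at either age. The difference between the effects, 21 minus 10 dpi, passed the test for 22 of the 45 genes (48.9%), against 20% of all features. It was negative, a wider deficit at 21 dpi, for 12 genes (26.7%, against 10.2% of all features). It was positive, a narrower deficit, for 10 genes (22.2%, against 9.71%). The medians were -0.07 over the 45 genes and -0.01 over all features. The rule also selects on the spread between libraries that enters this test. In 13 of the 45 genes fewer than 3 cpop1 libraries reached 1 FPKM, so they entered it through their WT levels. These shares are therefore not read as a result about the 45 genes.

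In the 12 genes with a wider deficit, the cpop1 level had a median of 9.46% of WT at 10 dpi and 0.109% at 21 dpi, and it was the lower at 21 dpi in all 12. That direction follows largely from the call, which was made on the same libraries. Of the 12 genes, 5 rose with age in WT and 11 fell with age in cpop1. The difference equals the cpop1 age change minus the WT age change, so these counts follow largely from the call as well. Such shares among all features with a negative difference were not computed. The largest differences were -6.51 ± 0.52 for LotjaGi5g1v0257900 (limma adjusted p = 4.64e-05) and -6.09 ± 0.56 for LotjaGi4g1v0196300 (limma adjusted p = 9.31e-05). In LotjaGi5g1v0257900 the cpop1 level was 9.21% of WT at 10 dpi and 0.0303% at 21 dpi, and in LotjaGi4g1v0196300 it was 7.09% and 0.0109%. The negative difference passed in every alternative setting for 8 of the 12 genes. LotjaGi3g1v0221700, at -2.12 ± 0.58 (limma adjusted p = 0.0269), lost the call without any one of 7 libraries, with a limma adjusted p of up to 0.0685 without cpop1 10 dpi replicate 2. The difference itself was then -1.83 to -2.19, about as large as with all libraries.

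In the 10 genes with a narrower deficit, 9 fell with age in WT, and 7 also fell in cpop1. The count in WT follows largely from the call. Such shares among all features with a positive difference were not computed. The largest differences were 3.80 ± 0.47 for LotjaGi1g1v0009300 (limma adjusted p = 0.00057) and 3.77 ± 0.25 for LotjaGi3g1v0078750 (limma adjusted p = 2.64e-05). LotjaGi1g1v0009300 stood in cpop1 at 2.85, 2.07 and 3.73 FPKM at 10 dpi and at 1.69, 2.24 and 1 FPKM at 21 dpi. Its cpop1 level was 1.05% of WT at 10 dpi and 14.8% at 21 dpi, while that of LotjaGi3g1v0078750 was 0.186% and 0.467%. Every cpop1 library of LotjaGi3g1v0078750 was under 1 FPKM, so the size of its difference depends on the pseudocount of 1 FPKM. The share was higher at 21 dpi in 8 of the 10 genes and lower in 2, a direction that also follows largely from the call.

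For 3 of the positive differences the call depended on the pseudocount of 1 FPKM. These genes were named after their values were seen, and their cpop1 level was near 0. With 0.1 FPKM, LotjaGi2g1v0103000 turned from 2.18 to -0.37 and LotjaGi6g1v0097500 from 1.62 to -0.14, and neither then passed the threshold. LotjaGi6g1v0097500 also lost the call with 0.5 FPKM (adjusted p = 0.0665 by limma). These are the 2 genes whose cpop1 share was lower at 21 dpi. LotjaGi3g1v0210100 kept its sign and lost the call (limma adjusted p = 0.172). The other 7 passed in every alternative setting, and all 10 passed without each single library.

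For 11 of the 45 genes neither age change passed the test. Their changes lay between -0.64 and 0.51 in WT and between -0.67 and 0.81 in cpop1. None of the 11 passed the test of the difference between the effects (0 in either direction). That follows largely from how the 11 were picked, since the difference is the cpop1 age change minus the WT age change. Their cpop1 level was between 1.06% and 36.1% of WT at either age. Their median was 17.1% at 10 dpi and 11.99% at 21 dpi. LotjaGi2g1v0414300, an example chosen after its values were seen, read 161, 160.2 and 102 FPKM in young and 120.1, 122 and 109.7 FPKM in mature WT nodules. Its cpop1 libraries read 34.1, 43.9 and 43.3 FPKM and then 36.0, 35.3 and 33.3 FPKM. Its WT libraries overlapped between the ages, as did its cpop1 libraries.

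**Figure D4:**
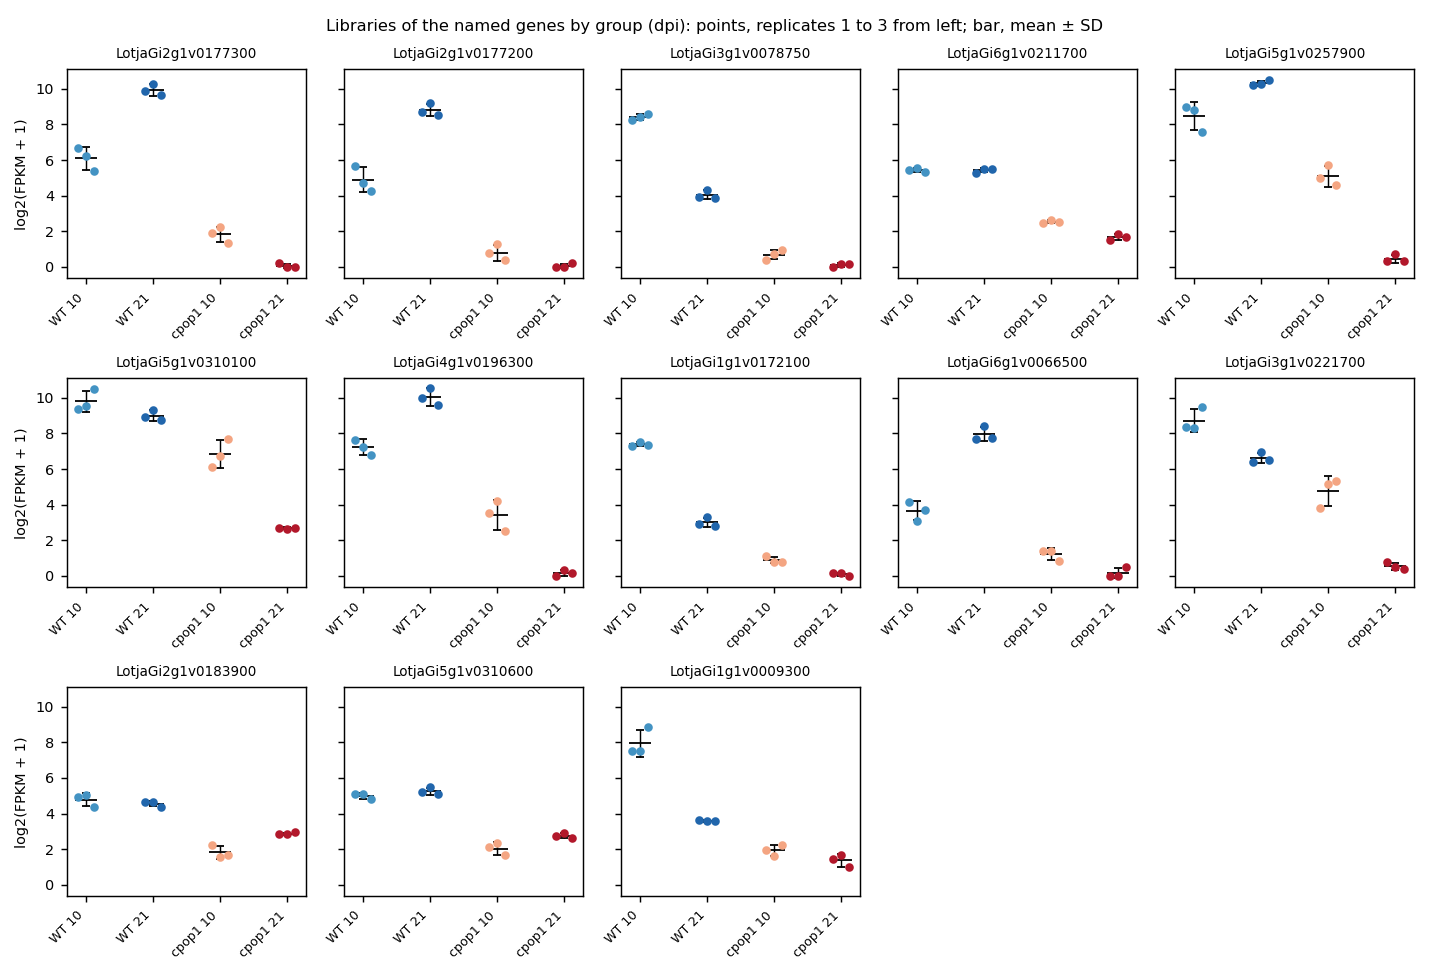
Level of 13 of the genes named by rule (those at the threshold are left out) in each library, as log2(FPKM + 1), by genotype and age in dpi. Points are single libraries, replicates 1 to 3 from left to right, and bars are the mean ± SD; every WT point lies at least 1 above every cpop1 point of its gene.

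Over the 12 libraries, the feature most like LotjaGi2g1v0177300 was its neighbour LotjaGi2g1v0177200, with a Pearson correlation of log2(FPKM + 1) of 0.994. Next came 2 genes that are not among the 45. LotjaGi2g1v0398300 had a correlation of 0.993, with WT means of 72.2 and 105 FPKM and cpop1 means of 49.1 and 43.1 FPKM at 10 and 21 dpi. LotjaGi1g1v0210600 had a correlation of 0.99, with WT means of 78.4 and 110 FPKM and cpop1 means of 56.4 and 48.6 FPKM. The 4 features shared the order of the groups, and these 2 had a much smaller range of levels.

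Identifiers numbered next to the 45 genes were also examined, although whether the numbers follow genome position is not stated in the sources used here. LotjaGi2g1v0177400, the next number after LotjaGi2g1v0177300 and singled out after its values were seen, did not meet the rule because its gap was 0.32. It read 2.87, 0.72 and 0.44 FPKM in young and 30.2, 70.7 and 13.8 FPKM in mature WT nodules. In cpop1 it read 0.15 FPKM in 10 dpi replicate 1 and was listed at 0 in the other cpop1 libraries. LotjaGi1g1v0003900, the number before LotjaGi1g1v0004000 and also singled out after its values were seen, had a gap of 2.15 and was left out by the condition on the mean, which was 1033 FPKM. It read 3039, 2785 and 1862 FPKM in young and 1179, 1200 and 1390 FPKM in mature WT nodules. Its cpop1 libraries read 265.5, 180.03 and 140.2 FPKM and then 125, 110.5 and 120.5 FPKM. Both thus had WT libraries above every cpop1 library, as the numbered neighbours among the 45 do. Most neighbours did not: of the 73 that passed the minimum level, 9 did. LotjaGi1g1v0004100, the number after LotjaGi1g1v0004000, was higher in cpop1, by 1.49 at 10 dpi and 1.14 at 21 dpi on the log2 scale.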

How the data were processed

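Per the file header, the deposited values are FPKM, 1 column per library and 12 in all, computed by the authors. Of the upstream tools, the submitters' processing notes list HISAT and Bowtie2 (version 2.2.5) without saying what each did. Neither the FPKM tool nor the genome build or annotation is stated in the sources used here. Columns named hemf2 were tied to the cpop1 samples through the descriptions in the labels. Read depth is unknown, so no counting error can be given. 4 rows share their ID with another row and were kept apart.

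The genes, the rule and the tests were chosen with earlier results of these data known. For the tests, limma 3.58.1 (R 4.3.3) took log2(FPKM + 1) with a separate mean for each of the 4 groups and a trended prior for the variance. It was run over all 22249 features with at least 1 FPKM in at least 3 libraries, after a check on simulated data. Changes on this scale understate those of low values. p-values were adjusted by Benjamini-Hochberg, with a threshold of 0.05. Named genes are the 4 with the widest gap, the 4 with the highest WT mean, the 2 on each side of the threshold, the 2 most positive and 2 most negative passing changes of each comparison, neighbouring identifiers among the 45, and the 3 features most like the gene with the widest gap. Genes named outside this rule, where a count was 5 or fewer or 1 gene was singled out, were chosen after their values were seen. As alternatives, the pseudocount, filter and scaling were varied, the replicate number was added as a block, the fit was limited to the compared groups, and each library was left out in turn. Python 3.11.15 was used for descriptive values and plots.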

Additional observations from a re-analysis of the deposited data

Results flagged for a closer look

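The limma test of the difference itself found 22 of the 45 genes with a genotype effect that differed between 21 and 10 dpi (48.9%, against 20% of all 22249 features). The share is not read as particular to these genes, since the rule selects on the spread that enters the test. Those named for this difference are LotjaGi5g1v0257900 (-6.51), LotjaGi4g1v0196300 (-6.09), LotjaGi1g1v0009300 (3.80) and LotjaGi3g1v0078750 (3.77), on the log2(FPKM + 1) scale. LotjaGi3g1v0078750 had no cpop1 library above 0.94 FPKM, so it entered the test through its WT levels, which changed by -4.36 with age. The size of its difference therefore depends on the pseudocount. Each of these 4 passed without each single library and in the other alternatives. WT 10 dpi replicate 3, which stood nearer the cpop1 libraries across features, read 0.388, 0.611, 2.51 and 1.17 times the mean of the other WT 10 dpi libraries for these genes, in the order named. Without it 12 differences were positive and 12 negative, while the share of all features that passed rose from 20% to 38.86%.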

How the results depend on the processing

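A gap of at least 0.5 gave 132 genes and a gap of at least 2 gave 8. Other settings of the rule gave 43 to 67. Leaving out single libraries gave 45 to 241 genes, the highest without WT 10 dpi replicate 3. With the 45 genes fixed and single libraries left out, 5 to 7 rose and 16 to 25 fell in WT, 1 to 3 rose (1 without cpop1 10 dpi replicate 3 or cpop1 21 dpi replicate 2) and 19 to 33 fell in cpop1, and 10 to 12 differences between the effects were positive and 9 to 14 negative. Fitting the WT libraries alone gave 5 rises and 17 falls, with 15.89% of all features called against 35.8%, and the cpop1 libraries alone 2 and 30, with 47.47% called against 29.5%. Without WT 10 dpi replicate 3 the shares of all features called were 44.74% in WT, 51.98% in cpop1 and 38.86% for the difference between the effects. The replicate numbers showed no clear pairing of the libraries, and the values do not settle whether there is one. Deviations of same-numbered libraries from their group means correlated at -0.0756 to 0.27. In all, 4 of 6 WT and 1 of 6 cpop1 libraries correlated best with their own number at the other age. With the replicate block, 6 rose and 19 fell in WT, 2 rose and 25 fell in cpop1, and 10 differences were positive and 13 negative. Of the named genes' values under alternatives, 776 kept their side of the threshold, 24 no longer passed and 6 passed only there. The cause of these shifts was not tested. Low cpop1 values, under 1 FPKM in many of these genes at 21 dpi, limit what a ratio to WT can resolve.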

Other observations

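Outside the annotated genes under 1000 FPKM, 16 further features that passed the minimum level had the same gap: 10 with identifiers beginning with BGI_novel, 4 ending in _LC and 2 annotated genes with a mean of at least 1000 FPKM. By the digit after LotjaGi, the 45 genes numbered 9, 7, 10, 4, 8 and 7 for the digits 1 to 6, between 0.146% and 0.384% of the features that met the other conditions. Of the 88 identifiers next to a member, 73 passed the minimum level. Among these 73 the lowest WT library exceeded the highest cpop1 library for 9 (12.3%), against 6.86% of all features. Their median genotype difference was -0.07 at 10 dpi and -0.09 at 21 dpi, against 0.02 and 0.05 over all features. The difference from all features was not tested.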
